A study of Mus musculus with 2 samples.

Results

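Type I interferon-stimulated genes are the genes that a cell switches on when the receptor for interferon alpha and beta is engaged. A group of 38 such genes was followed in splenic regulatory T cells (Tregs) that had lost the zinc finger protein Zfp335. The group was put together with the KO to WT levels of these same libraries in view, so its KO to WT ratios are a description and were not tested. Of the 38 genes, 36 were among the 32285 listed features, and Mx1 and Mx2 were not analysed here. There was 1 droplet library of WT mice, in which Foxp3-Cre/YFP is carried with intact Zfp335, and 1 library of KO mice (Zfp335fl/flFoxp3-Cre), in which the Foxp3-driven Cre deletes floxed Zfp335. Both held CD4+YFP+7AAD- spleen cells sorted from 7-day-old mice, and the number of mice behind each library is not stated. With 1 library per genotype there was no replicate, no p-value was computed, and a difference between genotypes cannot be told apart from a difference between libraries.

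As background, interferon alpha and beta bind a receptor made of Ifnar1 and Ifnar2, and the kinases Jak1 and Tyk2 then act on Stat2. With Irf9 it is part of a transcription factor that binds the interferon-stimulated response element in the promoters of its targets. The targets include antiviral effectors (Isg15, Rsad2, the Ifit and Oas families), sensors of viral RNA, and regulators that amplify the response (Irf7) or dampen it (Usp18). In T cells a low level of this program is known from unstimulated tissue.

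Each barcode marks a droplet and each unique molecular identifier (UMI) a counted transcript, so levels are UMIs of a gene per 1000000 UMIs of the summed barcodes (CPM). As 3′ UMI counting records a molecule rather than a length, levels of different genes were set side by side on this scale. A barcode was used if it had 300 genes or more and no more than 5% of mitochondrial UMIs, which left 8053 of 14524 in the WT library (median of 5061 UMIs) and 13767 of 18134 in the KO library (median of 2713). Brackets give 95% intervals that cover counting error only. Clusters with T cell receptor and CD3 genes made up the T lineage, with 7462 WT and 12765 KO barcodes, and the other 591 and 1002 barcodes were erythroid-like, neutrophil-like, B cell-like or macrophage-like. Foxp3 stood at 40.7 CPM in WT and 44.6 CPM in KO T-lineage barcodes, and at 5.71 and 10.2 CPM in other lineages. The targeted gene Zfp335 stood at 8.20 CPM in WT and 0.808 CPM in KO T-lineage barcodes (ratio 0.0986, 0.0700–0.136), in accord with the labels. Haemoglobin transcripts, which T cells do not make, took 567 CPM of the WT and 3239.8 CPM of the KO T-lineage UMIs, and their part in the results was not tested.

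The binding sequence of this pathway was looked for in the promoters. The members were listed as targets of this pathway, so a high share with the sequence follows from the list and is no independent support. The core searched was GAAANNGAAA, or TTTCNNTTTC on the opposite strand, where N is any base and overlapping matches were counted. Windows ran from 250 bases before to 50 bases after each RefSeq transcription start (GRCm38.p6). The core lay in the window of 15 of the 28 members with a window (53.6%), against 1079 of 27025 genes (3.99%). No window was found for Ifi27l2a, Zbp1, Usp18, Oas2, Rtp4, Parp9, Parp14, Dhx58, Mx1 and Mx2. It was present in 9 of 14 members whose KO to WT ratio in the T lineage was 1.5 or more, and in 6 of 12 whose ratio was lower. The stretches below are from members that held a core, 4 with T-lineage ratios near 3 or above and Oas3 with 1.32, and show the core in capitals, each written 5′ to 3′ on the strand of the gene. Isg15 (chr4:156200835-156200924, minus strand) has 3 overlapping cores, Ifit1 (chr19:34640764-34640853, plus strand) and Ifit3 (chr19:34583367-34583456, plus strand) have 2 each, and Rsad2 (chr12:26456523-26456612, minus strand) and Oas3 (chr5:120777685-120777774, minus strand) have 1 each.
Isg15: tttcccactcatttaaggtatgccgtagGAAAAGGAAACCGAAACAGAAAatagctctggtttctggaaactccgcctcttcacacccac
Ifit1: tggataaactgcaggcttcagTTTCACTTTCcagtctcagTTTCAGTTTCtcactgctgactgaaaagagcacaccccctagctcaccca
Ifit3: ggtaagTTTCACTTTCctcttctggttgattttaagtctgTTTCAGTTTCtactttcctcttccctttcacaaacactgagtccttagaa
Rsad2: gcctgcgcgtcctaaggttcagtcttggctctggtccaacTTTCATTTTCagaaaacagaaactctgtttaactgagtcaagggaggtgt
Oas3: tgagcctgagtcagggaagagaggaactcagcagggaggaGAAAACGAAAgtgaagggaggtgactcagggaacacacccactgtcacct

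The stretch of Ifit3b (chr19:34607763-34607852, plus strand) was identical to that of Ifit3 over all 90 bases. The 5 Ifit genes lie together on chromosome 19, from 34550694 (Ifit2) to 34650009 (Ifit1). Of their transcripts, those of Ifit3 and Ifit3b shared 792 stretches of 60 bases over the whole transcripts and none over their last 500 bases, where 3′ reads fall. Oasl2, with the highest KO to WT ratio of all members, had no match in its window. A match is a description of letters and says nothing about whether the factor was bound.

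In the T lineage the members together took 2003 CPM in WT and 2515 CPM in KO, a ratio of 1.26 (1.24–1.27). Ifi27l2a, a small hydrophobic protein whose gene is a classical interferon target, supplied 56.3% of these UMIs in WT and 43.7% in KO. Its own level was 1129 CPM in WT and 1100.1 CPM in KO, a ratio of 0.975 (0.963–0.986). Without Ifi27l2a the other members summed to 875 CPM in WT and 1415 CPM in KO, a ratio of 1.62 (1.60–1.64). A gene entered the ratios with at least 50 UMIs over both libraries, which 34 members had. Oasl1 (7 WT and 38 KO UMIs) and Ifi44 (1 WT UMI) stayed below that. The KO to WT ratio was 1.5 or more for 18 of the 34 members, beside 6.11% of all 12180 genes with enough UMIs, and 1/1.5 or less for 0 members, beside 12.4% of all genes. The median log2 ratio was 0.71 for the members and -0.07 for all genes. As the members were picked on this contrast, these figures carry no support of their own. Just inside the limit of 1.5 were Isg20 (1.5) and Ifi35 (1.62), and just outside it Cmpk2 (1.41) and Stat2 (1.45).

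**Figure D1:**
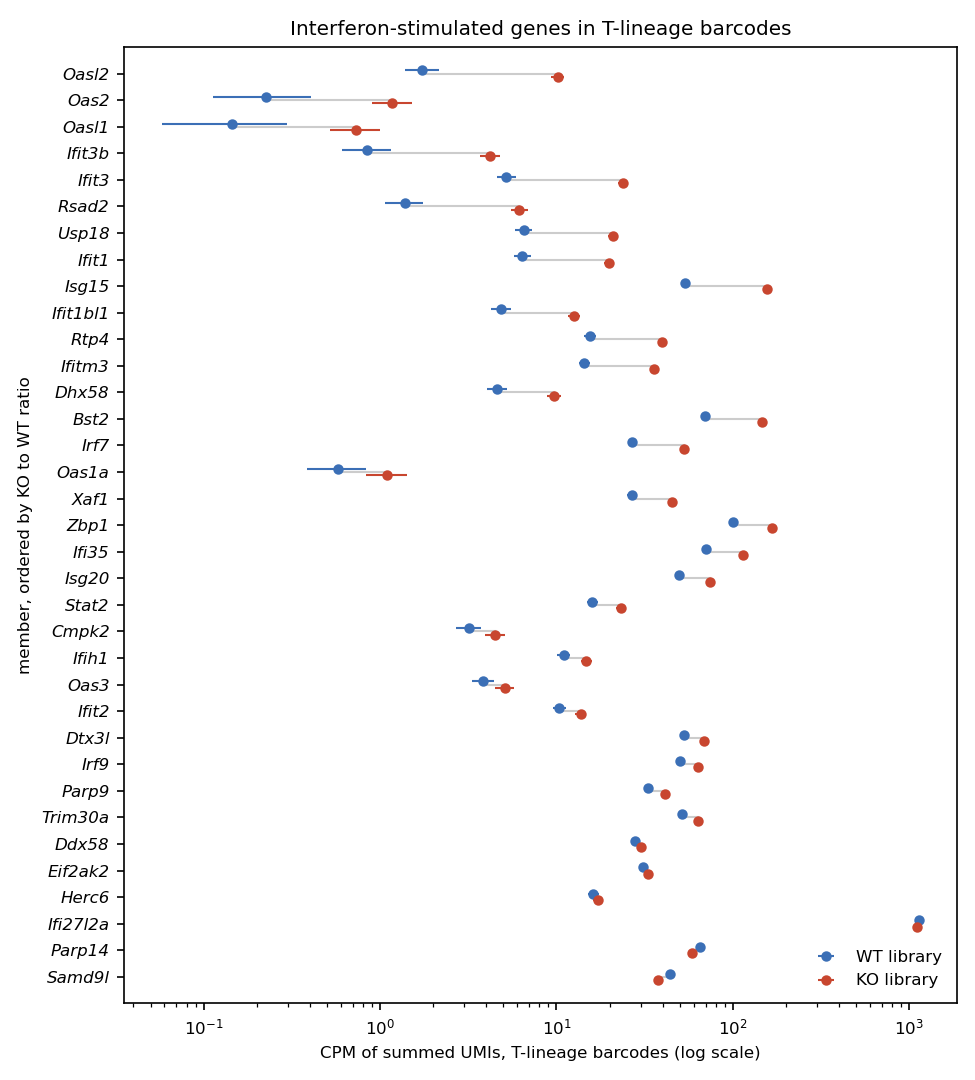
Level of each member in T-lineage barcodes, as CPM on a log axis with 1 point for the WT and 1 for the KO library and bars for the 95% Poisson interval. Levels ran from 0.145 CPM (Oasl1, WT) to 1129 CPM (Ifi27l2a, WT), and the KO point lay right of the WT point except for Ifi27l2a, Parp14 and Samd9l.

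The 5 highest ratios were those of the antiviral effectors Oasl2, Oas2, Ifit3b, Ifit3 and Rsad2, most of them at low levels. The regulator Usp18 came next (3.18), and other effectors lay lower. Oasl2, related to the oligoadenylate synthetases that set off RNA decay, was at 1.73 CPM in WT and 10.2 CPM in KO (ratio 5.88, 4.66–7.50). Oas2, a synthetase proper, rested on 11 WT and 61 KO UMIs, 0.227 and 1.17 CPM (5.17, 2.70–10.9). The relatives Oas1a (1.90, 1.19–3.10) and Oas3 (1.32, 1.09–1.60) were nearer to 1, so the family did not share a ratio. Among the Ifit genes, whose proteins bind foreign RNA ends, Ifit3 went from 5.20 CPM in WT to 23.8 CPM in KO (4.56, 3.98–5.25). Ifit3b was at 0.847 and 4.22 CPM (4.98, 3.55–7.13) and Ifit1 at 6.40 and 19.8 CPM (3.09, 2.72–3.52). Ifit2 stood apart from its neighbours, at 10.4 and 13.7 CPM (1.32, 1.18–1.48). It had the highest WT level of the family and the lowest ratio. The 5 Ifit genes summed to 27.7 CPM in WT and 74.0 CPM in KO (2.67, 2.51–2.85).

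Rsad2, or viperin, which makes a chain-terminating nucleotide, was at 1.38 CPM in WT and 6.16 CPM in KO (4.45, 3.41–5.88). At the Rsad2 to haemoglobin ratio of a haemoglobin-high cluster described below, 1.03 and 4.44 CPM of these would come with haemoglobin. That part was not tested. The chromosome 12 neighbour of Rsad2, Cmpk2, a mitochondrial nucleotide kinase, was at 3.18 and 4.49 CPM (1.41, 1.15–1.74). Isg15, a ubiquitin-like protein that is joined to other proteins, was among the most abundant members as well as those with the highest ratios, at 53.3 CPM in WT and 157 CPM in KO (2.95, 2.82–3.09). Isg20, an exonuclease, was at 49.5 and 74.1 CPM (1.5, 1.42–1.58). The membrane proteins were both higher in the KO library. Bst2, or tetherin, which holds budding virus at the cell surface, was at 69.9 CPM in WT and 146 CPM in KO (2.09, 2.01–2.18). Ifitm3, which blocks fusion of virus with endosomes, was at 14.4 and 35.6 CPM (2.47, 2.26–2.69).

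Of the regulators, Usp18, the protease that removes Isg15 and dampens receptor signalling, was at 6.55 CPM in WT and 20.8 CPM in KO (3.18, 2.80–3.62). Irf7, the factor that amplifies interferon production, was at 26.7 and 52.6 CPM (1.97, 1.84–2.11). The subunits of the responding factor differed less between libraries, with Irf9 at 50.4 and 63.7 CPM (1.26, 1.20–1.33) and Stat2 at 16 and 23.1 CPM (1.45, 1.32–1.58). Among the sensors, the Z-form nucleic acid sensor Zbp1 was the second most abundant member, at 99.8 CPM in WT and 166 CPM in KO (1.66, 1.60–1.72). The RNA helicases spread from Dhx58 (2.11, 1.80–2.48) over Ifih1 (1.34, 1.20–1.5) to Ddx58, or RIG-I (1.08, 1.01–1.17). For Eif2ak2, the kinase PKR that halts translation, the interval held 1 (1.07, 0.997–1.15), as it did for the ubiquitin ligase Herc6 (16.2 and 17.2 CPM, 1.06, 0.962–1.17).

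The members below 1 were Ifi27l2a, Parp14 and Samd9l. Parp14, an ADP-ribosyltransferase, was at 65.0 CPM in WT and 58.4 CPM in KO (0.899, 0.855–0.946). Its chromosome 16 neighbours Parp9 and Dtx3l, whose products form a complex, were above 1, with Parp9 at 1.25 (1.17–1.33) and Dtx3l at 53.1 and 68.6 CPM (1.29, 1.23–1.36). Samd9l, which restricts growth and virus translation, was lowest, at 43.8 and 37.5 CPM (0.855, 0.804–0.910). Ifi35, which binds the interferon-induced partner Nmi, was at 70.6 and 114 CPM (1.62, 1.55–1.69). The remaining members Ifit1bl1, Rtp4, Xaf1 and Trim30a had ratios of 2.59, 2.56, 1.70 and 1.23.

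T-lineage barcodes were divided into clusters without using the members or the other interferon lists, and a cluster took a name only from marker genes. The resting Treg-like cluster, marked by Ccr7, Lef1 and Tcf7, was the largest, with 2909 WT and 5017 KO barcodes. The activated Treg-like cluster, with Tnfrsf9 and Nefh, had 819 and 1389, and the cycling T cluster 582 and 780. The effector Treg-like cluster, with Klrg1 and Cxcr3, had 1596 WT but only 45 KO barcodes, so its KO values rest on few cells. Clusters 2, 6 and 7 stayed unnamed. Cluster 2 was led by haemoglobin genes at low depth (1056 and 4506 barcodes, medians of 681 and 1383 UMIs), cluster 6 by effector and mitosis genes, and cluster 7 by neutrophil granule genes with 16 WT barcodes.

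**Figure D2:**
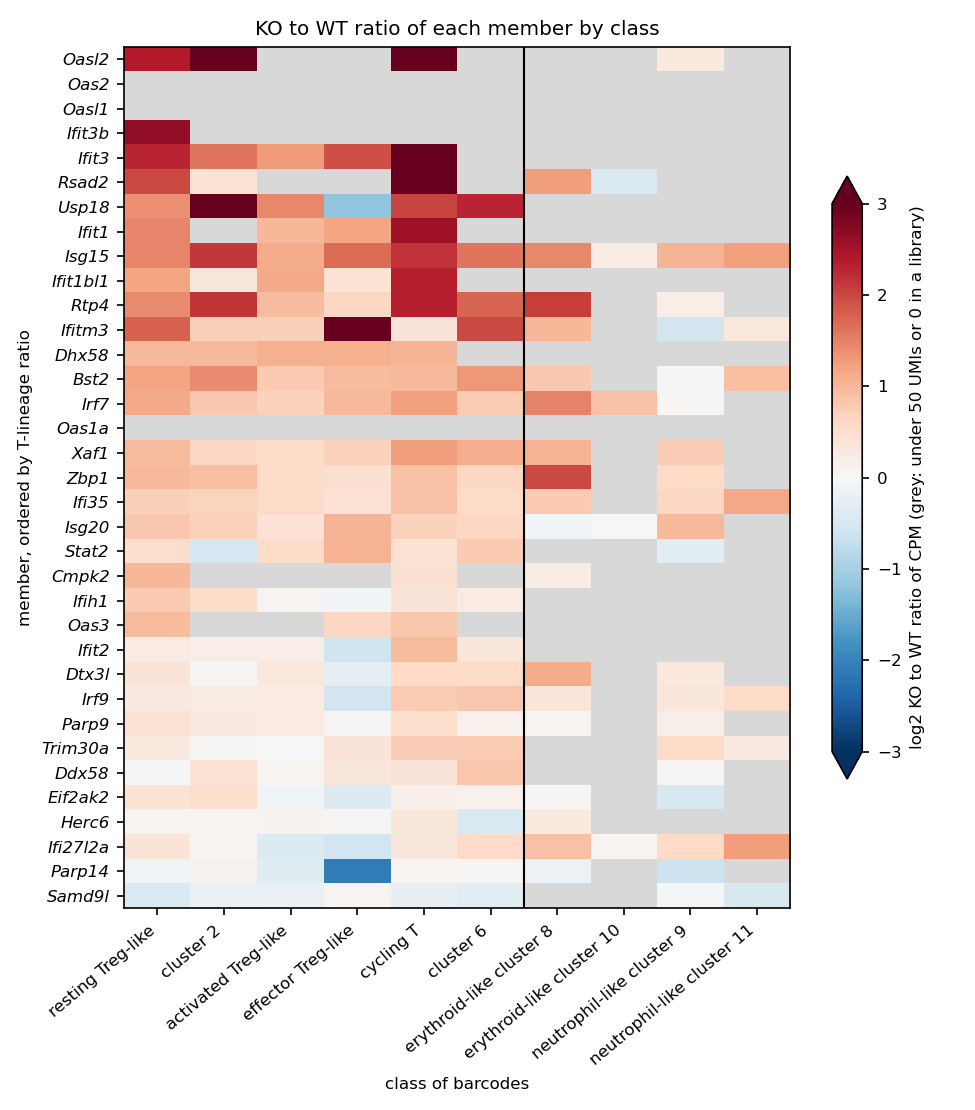
KO to WT ratio of each member in each class, as colour on a log2 scale with values beyond the scale in the end colours, and grey cells where a member had under 50 UMIs or none in a library. T cell clusters stand left of the line and other clusters right of it, and in the resting Treg-like column Ddx58 (0.970), Parp14 (0.935) and Samd9l (0.733) have the colours of lower KO levels.

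In resting Treg-like barcodes the members took 2154 CPM in WT and 3186 CPM in KO, a ratio of 1.48 (1.46–1.5). A ratio of 1.5 or more was found for 20 of 32 members, beside 2.47% of all genes in this cluster, and of 1/1.5 or less for 0, beside 12.2% of all genes. The median log2 ratio was 0.94 for the members and -0.11 for all genes. Ifit3 was at 8.08 CPM in WT and 39.3 CPM in KO (4.86, 3.94–6.05), Oasl2 at 3.05 and 15.9 CPM (5.20, 3.70–7.52) and Isg15 at 66.4 and 184 CPM (2.77, 2.57–2.99). Samd9l was again on the other side, at 71.9 and 52.7 CPM (0.733, 0.670–0.802). In this cluster haemoglobin took 587 CPM in WT and 1043 CPM in KO, macrophage markers 23.1 and 20.3 CPM, and neutrophil granule genes 406 and 276 CPM. The part of RNA from other cells in the member levels was not tested.

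With all members summed, activated Treg-like barcodes were at 1780.1 CPM in WT and 1846 CPM in KO (1.04, 1.02–1.06), and effector Treg-like barcodes at 2921 and 2907 CPM (0.995, 0.931–1.06), so the whole group was nearly level in both. Cycling T barcodes were at 1144 and 1784 CPM (1.56, 1.52–1.60). Without Ifi27l2a, which was left out after the data were seen, the sum was higher in KO in all of these. That sum was 758 CPM in WT and 1071 CPM in KO for activated Treg-like (1.41, 1.37–1.46), and 1075 and 1659.6 CPM for effector Treg-like barcodes (1.54, 1.41–1.68). It was 582 and 1068 CPM for cycling T barcodes, the lowest WT level of the named T cell clusters and the highest ratio (1.84, 1.78–1.90). In cluster 7, with 16 WT barcodes, the ratio was 0.966 (0.656–1.48). Members at 1.5 or more numbered 14 of 29 in cluster 2, beside 9.25% of all genes, and 10 of 27 in activated Treg-like barcodes, beside 4.55%. They numbered 20 of 31 in cycling T barcodes, beside 8.46%, and 12 of 28 in effector Treg-like barcodes, beside 11.9%. In the latter 3 members were at 1/1.5 or less, beside 22.9% of all genes: Usp18 and Ifit2 with 1 and 2 KO UMIs, and Parp14 with 6, at 81.8 CPM in WT and 19.0 CPM in KO (0.232, 0.0851–0.508). Ifitm3 had its highest ratio in this class, at 14.4 CPM in WT and 174 CPM in KO from 55 UMIs (12.1, 8.76–16.6). The part of RNA from other cells in these Ifitm3 values was not tested. Among cycling T barcodes Isg15 was at 27.1 CPM in WT and 121 CPM in KO (4.46, 3.90–5.13), and Ifit3, with 12 WT UMIs, at 1.23 and 12.1 CPM (9.83, 5.39–19.6). The Ifit genes together were at 44.2 CPM in WT and 116 CPM in KO for resting Treg-like barcodes (2.62) and at 11.5 and 43.7 CPM for cycling T barcodes (3.81).

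Ifi27l2a did not follow the other members in every class. In resting Treg-like barcodes it was at 1091 CPM in WT and 1414 CPM in KO (1.30, 1.27–1.32), and in cycling T barcodes at 563 and 716 CPM (1.27, 1.23–1.32). In activated Treg-like barcodes it was lower in KO, at 1022 and 775 CPM (0.758, 0.736–0.781), and so it was in effector Treg-like barcodes, at 1846 and 1248 CPM (0.676, 0.610–0.747). Within resting Treg-like barcodes the ratio of Ifi27l2a also moved with depth: over 5 bins of UMIs per barcode, from shallow to deep, it was 0.988, 1.70, 1.49, 1.29 and 0.992. The ratio of the other members was 1.57, 1.55, 1.65, 1.72 and 1.54 in the same bins.

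**Figure D3:**
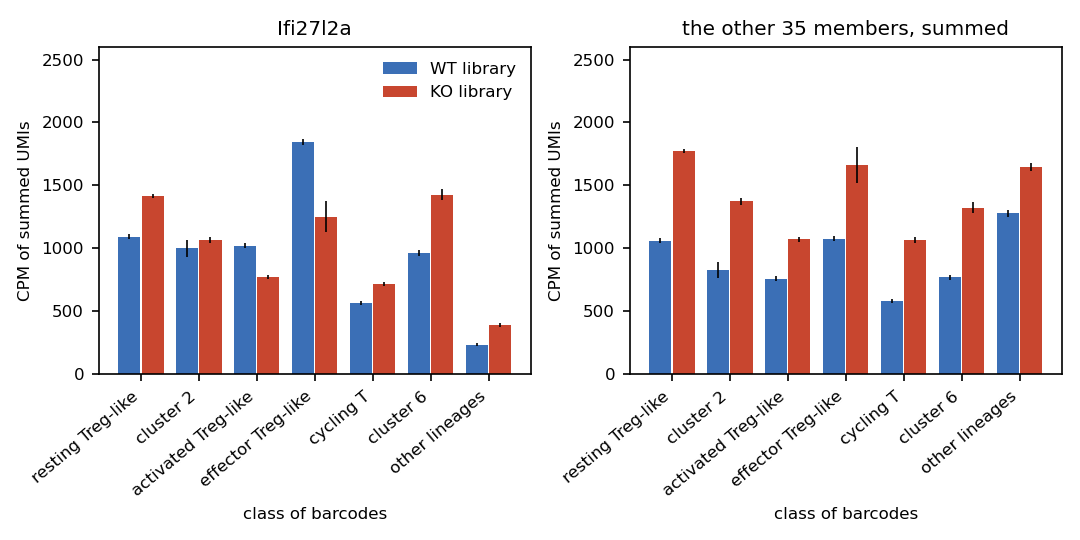
Summed level of Ifi27l2a and of the other members by class, as bars of CPM per library with lines for the 95% Poisson interval. The other members were higher in KO in every named T cell class, whereas Ifi27l2a was higher in KO in resting Treg-like (1.30) and lower in activated Treg-like (0.758) barcodes.

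In the barcodes of other lineages the members took 1511 CPM in WT and 2037 CPM in KO (1.35, 1.31–1.39). A ratio of 1.5 or more was found for 15 of 32 members, beside 4.65% of all genes, and of 1/1.5 or less for 0, beside 8.99%. Zfp335 was also lower in these barcodes of the KO library, at 6.58 CPM in WT and 2.81 CPM in KO. T cell receptor and CD3 genes stood in them at 13.5% (WT) and 25.9% (KO) of their T-lineage level, which marks how much T cell RNA these barcodes held, and its part in the values was not tested. Of the members, 36 of 36 in WT and 34 of 35 in KO lay above that mark. Isg15 was at 102 CPM in WT and 245 CPM in KO (2.40, 2.18–2.65), Usp18 at 4.67 and 11.9 CPM (2.55, 1.61–4.15) and Ifit3, from 12 and 41 UMIs, at 2.08 and 7.19 CPM (3.46, 1.79–7.24). Ifi27l2a was higher in KO here, at 233 and 388 CPM (1.66, 1.55–1.78).

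Other members had no such difference outside the T lineage. Ifitm3, at 400.1 CPM in WT and 369 CPM in KO, had a ratio of 0.922 (0.869–0.978) and a far higher level than in T-lineage barcodes. The intervals for Oas1a (0.986, 0.606–1.60) and Eif2ak2 (0.845, 0.690–1.03) held 1. By cluster, the sum without Ifi27l2a had a ratio of 1.61 (1.51–1.71) in erythroid-like cluster 8, 1.33 (1.22–1.45) in neutrophil-like cluster 11 and 1.5 (1.18–1.90) in B cell-like barcodes. It was 0.943 (0.898–0.989) in neutrophil-like cluster 9, led by Elane and Mpo, and 0.989 (0.923–1.06) in the haemoglobin-high erythroid-like cluster 10. Cluster 10 held the highest levels of Isg15 and Rsad2 described here, with Isg15 at 929 CPM in WT and 1085 CPM in KO (1.17, 1.03–1.32) and Rsad2 at 1197 and 880.0 CPM (0.735, 0.655–0.825).

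As Rsad2 was so abundant there, the T-lineage level of Rsad2 was set beside the amount that haemoglobin in the same barcodes would bring at the ratio of cluster 10. In KO T-lineage barcodes that amount was 4.44 CPM of the 6.16 CPM measured, and in WT 1.03 CPM of 1.38 CPM. In resting Treg-like barcodes of the KO library it was 1.43 CPM of 5.88 CPM. For Isg15 in KO T-lineage barcodes it was 5.47 CPM of 157 CPM. In cluster 2 the ratio gave more Rsad2 than was measured, at 16.9 CPM against 12.1 CPM in KO and 14.2 CPM against 9.17 CPM in WT. The ratio of cluster 10 need not hold for the haemoglobin of other barcodes, and the part of erythroid RNA in these levels was not tested.

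The spread across barcodes was read at equal depth, with each barcode thinned to 1000 UMIs, which kept 6403 WT and 11708 KO T-lineage barcodes and left out 1059 and 1057. At this depth a T-lineage barcode held a mean of 2.23 member UMIs in WT and 2.71 in KO. No member UMI was found in 18.8% of WT and 12.2% of KO barcodes. Those with 3 or more made up 34.6% (33.4–35.7) of WT and 43.9% (43.0–44.8) of KO barcodes, and without thinning 80.9% and 81.6%. The variance was 2.05 times the mean in WT and 2.15 times in KO, where independent counts of a fixed level would give 1. Where levels vary between barcodes this ratio also grows with the mean, which was higher in KO. The values of the 2 libraries are therefore no measure of which was more uneven. The 5% of barcodes with the most member UMIs held 18.8% of them in WT and 18.0% in KO. At most 28 member UMIs were found in a WT barcode and 35 in a KO barcode. In the T lineage, both a lower share of barcodes with none and a larger upper tail were thus seen in KO. The mix of clusters differed, with 109 WT and 3710 KO barcodes kept in cluster 2, and 1589 and 45 effector Treg-like. The part of this mix was not tested. The share with 3 or more was 31.9% (WT) and 50.3% (KO) in resting, and 28.6% and 30.3% in activated Treg-like barcodes. For cycling T it was 15.1% and 29.5%. In effector Treg-like barcodes it was 50.8% in WT and lower in KO, with an interval of 25.7–55.7.

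**Figure D4:**
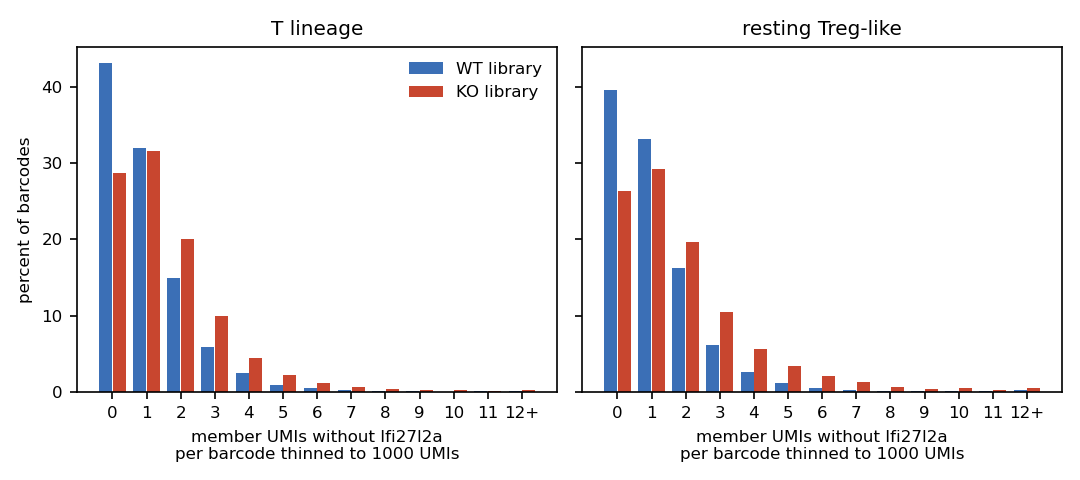
Share of barcodes by the number of member UMIs other than Ifi27l2a after thinning to 1000 UMIs, for each library in the T lineage and in the resting Treg-like cluster. In T-lineage barcodes 43.1% of WT and 28.7% of KO held none, and 10.1% and 19.6% held 3 or more.

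Without Ifi27l2a the T-lineage means were 1.01 UMIs in WT and 1.54 in KO, with variance to mean ratios of 1.71 and 1.99. Resting Treg-like barcodes had means of 1.10 and 1.83 and ratios of 1.81 and 2.48. Of these barcodes 11% in WT and 24.9% in KO held 3 or more, and without thinning 61.3% and 76.4%. The upper tail of 10 or more held 7 WT barcodes (0.248%) and 56 KO barcodes (1.13%), with a highest value of 20 in WT and 26 in KO. Cluster 2, led by haemoglobin, had variance to mean ratios of 1.5 in WT, from 109 barcodes, and 1.12 in KO, from 3710. Activated Treg-like barcodes had ratios of 1.73 and 2.26, and cycling T barcodes 1.83 and 1.76. In erythroid-like cluster 10 the ratios were 6.01 and 4.89, which made it the most uneven cluster of those named in this paragraph. For comparison, T cell receptor and CD3 genes in T-lineage barcodes, with larger means of 6.89 and 6.29, gave 1.66 and 1.51, and the nucleic acid sensing genes 1.09 and 1.17.

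Members were found together in the same barcodes. After thinning, at least 1 Ifit UMI was present in 4.11% (3.41–4.92) of WT and 9.70% (8.89–10.6) of KO resting Treg-like barcodes, and without thinning in 13.2% and 25.6%. In other lineages the thinned shares were 1.75% and 4.40%. Resting Treg-like barcodes with an Ifit UMI, 116 in WT and 480 in KO, were set against the 2703 and 4467 without. The members outside the Ifit family and other than Ifi27l2a had means of 2.30 and 0.997 UMIs in WT, a ratio of 2.31 (2.03–2.62), and of 3.25 and 1.54 in KO, a ratio of 2.11 (1.99–2.23). With Ifi27l2a included these ratios were 1.70 (1.53–1.88) in WT and 1.77 (1.70–1.85) in KO. In this comparison both sides come from a single library, so genotype plays no part in it. Isg15 had ratios of 4.04 in WT and 3.35 in KO, Zbp1 of 2.00 and 1.93, and Ifi27l2a of 1.08 (0.899–1.30) and 1.38 (1.29–1.49). In KO, Rsad2 had 24 UMIs in the barcodes with and 20 in those without an Ifit UMI, a ratio of 11.2 (5.91–21.3). The interferon-inducible GTPases went the same way (1.98 and 1.88), while T cell receptor and CD3 genes stayed near 1 (0.922 and 1.00). Between these lay the interferon receptor and signal genes, at 1.19 (1.02–1.37) in WT and 1.37 (1.29–1.46) in KO. The nucleic acid sensing genes were at 1.17 (0.968–1.39) and 1.40 (1.29–1.51). The KO ratio of Ifi27l2a (1.38) was thus no higher than those of these lists.

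**Figure D5:**
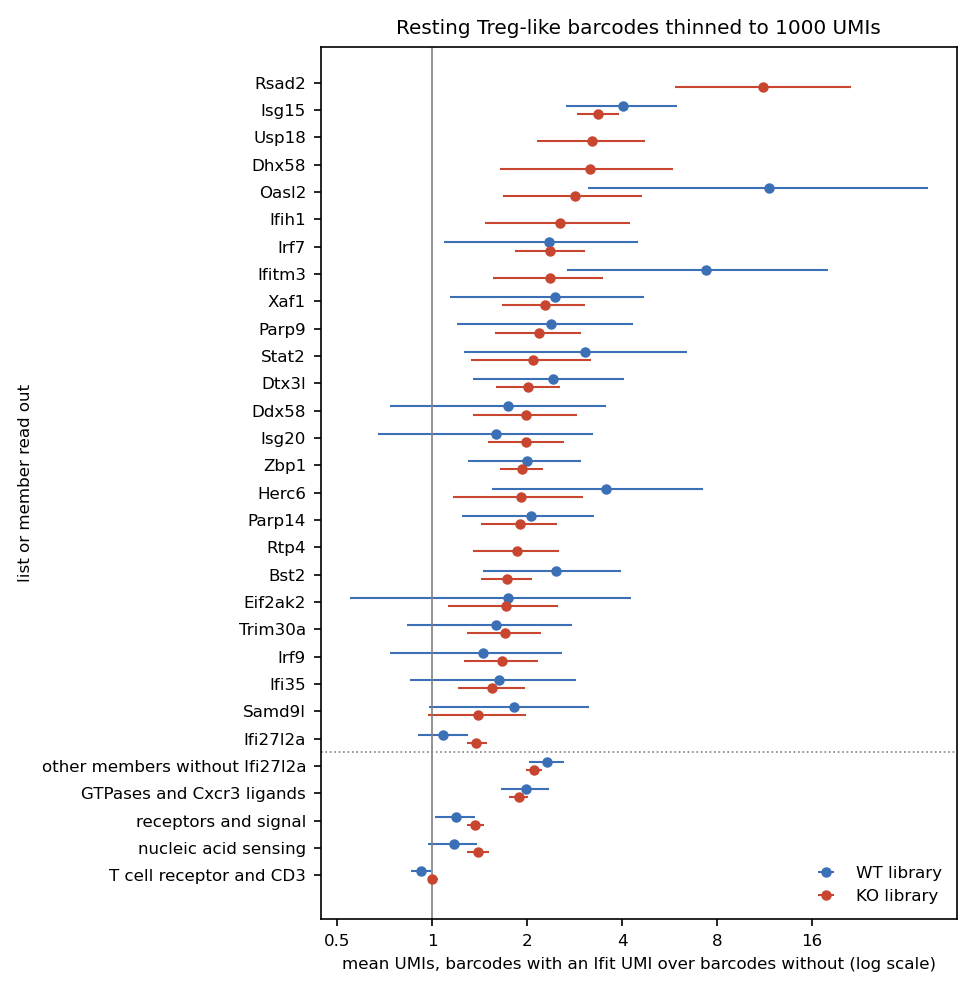
Ratio of mean UMIs in resting Treg-like barcodes with an Ifit UMI to those without, at 1000 UMIs, for gene lists and members in each library, with 95% intervals for counting error on a log axis. The members outside the Ifit family and other than Ifi27l2a, summed, lie at 2.31 in WT and 2.11 in KO, and T cell receptor and CD3 genes at 0.922 and 1.00.

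The rest of the pathway was described by lists of ligands, receptors and neighbouring genes. None of the type I interferon genes had a UMI in T-lineage barcodes, apart from Ifnz with 2 in WT, so the ligand was not detected in these cells at this depth. The type II interferon Ifng was at 8.63 CPM in WT and 2.91 CPM in KO (0.337, 0.278–0.407), a log2 ratio of -1.57. Its direction differed between clusters, with log2 ratios of 0.57 in resting and 0.37 in effector Treg-like barcodes. It was -2.34 in activated Treg-like barcodes, -0.99 in cycling T barcodes and -2.02 in cluster 6. The part of the cluster mix in the T-lineage ratio was not tested. The receptor chain Ifnar1 was lower in KO, at 63.8 CPM in WT and 42.3 CPM in KO (ratio 0.663, 0.627–0.7), and in resting Treg-like barcodes at 95.2 and 55.3 CPM (0.581, 0.535–0.631). The partner chain Ifnar2 stayed level at 73.2 and 73.8 CPM (1.01, 0.964–1.06). For the kinases, Jak1 was at 306 and 265 CPM (0.866, 0.846–0.887) and Tyk2 at 21.0 and 15.0 CPM (0.712, 0.648–0.783). The receptor for interferon gamma had Ifngr1 at 102 and 69.3 CPM (0.679, 0.650–0.709) and Ifngr2 at 15.8 and 20.7 CPM (1.32, 1.20–1.45). Among resting Treg-like barcodes alone those ratios were 0.980 and 0.924, so for this receptor the T-lineage difference was not seen within the largest cluster.

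Downstream of the receptors, the regulatory factor Irf1, which interferon gamma also induces, was at 101 CPM in WT and 161 CPM in KO (1.59, 1.54–1.65). The feedback inhibitor Socs1 had the highest ratio of this list, at 23.3 and 72.6 CPM (3.11, 2.91–3.33), and its relative Socs3 was at 17.2 and 22.8 CPM (1.32, 1.21–1.45). Irf2, Irf3 and Irf8 had ratios of 1.04, 0.982 and 1.28 in the T lineage, and Irf8 of 2.28 (2.00–2.60) in resting Treg-like barcodes. Of the 13 receptor and signal genes, 3 were at 1.5 or more and 1 at 1/1.5 or less, beside the 6.11% and 12.4% of all genes. Of 12 nucleic acid sensing genes, only Tlr7 was at 1.5 or more (2.39, 1.86–3.10). The GTPases and Cxcr3 ligands, which both types of interferon induce, had 7 of 16 at 1.5 or more and summed to 554 CPM in WT and 930.5 CPM in KO (1.68), with Iigp1 at 3.38, Tgtp1 at 2.63, Gbp2 at 2.56 and the chemokine Cxcl10 at 2.38.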

How the data were processed

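The deposited files hold raw counts of UMIs per gene and barcode for 1 WT and 1 KO library, which the authors made from 10x Chromium Single Cell V3 libraries with Cell Ranger 5.0.1 on mm10. The matrices totalled 64567991 UMIs in WT and 65480052 in KO. The members and gene lists were chosen with earlier results of these data known.

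Barcodes of under 300 genes or over 5% mitochondrial UMIs were dropped. The filter removed 6471 WT and 4364 KO barcodes over 5%. The libraries shared 70 barcode sequences, of which 29 were kept in both. Likely doublets were kept in the main values and removed in an alternative, where the barcodes with the highest Scrublet scores were dropped (403 WT and 1101 KO). Clusters (scanpy 1.11.5, igraph 0.11.9, Leiden at resolution 0.5 on 30 principal components and 20 neighbours of 2000 variable genes) left out the members, the interferon lists, marker, haemoglobin, granule and mitochondrial genes. The T lineage was set at 50% of the T cell gene level of the highest cluster. This limit and the cluster names were set after the data were seen.

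UMIs were summed per library and class as CPM with exact Poisson 95% intervals, and ratios had exact conditional binomial intervals. Shares had Clopper-Pearson intervals. Intervals cover counting error only. Log2 ratios had 0.5 UMIs added. For the spread, barcodes were thinned without replacement to 1000 UMIs. Python 3.11.15, numpy 2.4.6, scipy 1.17.1 and pandas 2.3.3 were used, and the calculations were tested on simulated data. Named genes were the 8 members with the most UMIs, the 8 highest and 4 lowest ratios in the T lineage, members whose ratio crossed 1 in other lineages, and the receptor and signal genes, of which 1 is not reported here. Other members are named for completeness by role. Alternatives were other filters, denominators, UMI minimums, cluster resolutions and thinning depths. Promoter windows came from RefSeq, with 28 members matched, and gene positions from GENCODE on GRCm38. With 1 library per genotype there was no pairing and no test.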

Additional observations from a re-analysis of the deposited data

Results flagged for a closer look

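Ifi27l2a had a KO to WT ratio of 1.66 in other lineages and 0.975 in the T lineage, on opposite sides of 1. Its level in other lineages was 20.7% (WT) and 35.3% (KO) of its T-lineage level. For T cell receptor and CD3 genes these shares were 13.5% and 25.9%, and the part of T cell RNA in the ratio of 1.66 was not tested. Within the T lineage the ratio of Ifi27l2a was 1.30 in resting Treg-like barcodes and 0.758 in activated Treg-like barcodes, and 0.676 in effector Treg-like barcodes, of which the KO library had 45. Ifitm3 had a ratio of 0.922 in other lineages and 2.47 in the T lineage. Its level in other lineages was 2776% (WT) and 1038% (KO) of its T-lineage level. The part of RNA from other cells in its T-lineage values was not tested. Each group was 1 library per genotype, and these differences between classes were not tested.

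The barcodes with more than 5% mitochondrial UMIs were left out of the comparisons above. They come from the same 2 libraries on which the members were picked, so their values carry no support of their own. In 6468 WT and 4364 KO such barcodes the Ifit genes summed to 25.6 CPM in WT and 61.5 CPM in KO, a ratio of 2.40 (2.06–2.80). The members other than Ifi27l2a had a ratio of 1.51 (1.47–1.55) there.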

How the results depend on the processing

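No paired analysis was possible because each genotype had 1 library and the result comes from no test. No alternative turned a direction. The count of 18 T-lineage members at 1.5 or more ran from 16 to 20 over 8 alternatives. The T-lineage ratio of summed members (1.26) became 1.27 with no mitochondrial filter, 1.56 without the 3 members with the most UMIs, 1.24 as a mean of single-barcode CPM, 1.62 without Ifi27l2a, 1.23 in barcodes of 3000 to 6000 UMIs and 1.27 with KO clusters weighted by WT shares. The resting Treg-like ratio (1.48) became 1.44, 1.58, 1.53, 1.67 and 1.54 under the first 5 of these, and 1.53 with the resting state read from marker UMIs. The median log2 ratio (0.71) became 0.75 with no mitochondrial filter, 0.70 without doublets, 0.69 without the top 3 members or with Ifit3 and Ifit3b as 1 gene, 0.72 with the other denominator or without clusters 2 and 7, 0.64 at a minimum of 200 UMIs, 0.73 without Ifi27l2a and 0.66 at 3000 to 6000 UMIs. The variance to mean ratio (2.05 WT, 2.15 KO) became 1.84 and 2.05 with no mitochondrial filter, 2.07 and 2.24 without doublets, 1.64 and 1.89 without the top 3, 1.49 and 1.53 at 500 UMIs, 3.09 and 3.92 at 2000, 13.3 and 14.6 unthinned, and 1.71 and 1.99 without Ifi27l2a. The share with 3 or more member UMIs (34.6% WT, 43.9% KO) became 30.0% and 42.1% with no mitochondrial filter, 6.87% and 13.1% without the top 3, 12% and 16.6% at 500 UMIs, 66.9% and 75.9% at 2000, 80.9% and 81.6% unthinned, and 10.1% and 19.6% without Ifi27l2a. Values under fewer members or another depth move by construction, and for the others the cause was not tested. Settings without Ifi27l2a, without shared barcode sequences, of 3000 to 6000 UMIs, weighted by WT shares and without clusters 2 and 7 were chosen after seeing the data.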

Other observations

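Of 46 further interferon-related genes with enough UMIs in the T lineage, 7 had a KO to WT ratio of 1.5 or more, beside 6.11% of all genes, and 1 of 1/1.5 or less, beside 12.4%. Ube2l6, the enzyme that passes Isg15 to its targets, was at 6.36 CPM in WT and 14.5 CPM in KO (2.29, 2.00–2.62), and the helicase Ddx60 at 7.83 and 15.7 CPM (2.00, 1.77–2.27). Ly6e, a surface protein at 854 CPM in WT and 881 CPM in KO, had a ratio of 1.03, and Slfn2, a growth regulator of T cells, of 0.969. The large GTPase Gvin1 was the gene at 1/1.5 or less, at 6.5 and 3.73 CPM (0.574, 0.478–0.689). These genes were named after their values were seen.

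Around the limit of 5% mitochondrial UMIs, barcodes over 4 to 5% held 2119 member CPM in WT and 2577 in KO, and those over 5 to 6% held 2066 and 2698.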
